A study of Mus musculus with 12 samples.

Results

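Proser1, Tet1, Tet2, Tet3 and Ogt were examined in RNA-seq of mouse embryonic stem cells (mESC). They are the genes of PROSER1, of the TET dioxygenases it binds and of the enzyme O-GlcNAc transferase. Members were taken by gene symbol, and the 5 genes were found once each among the 35976 genes of the table. The choice was made with earlier results of these data known. All 5 were among the 15341 genes that entered the tests, which needed a normalised count averaging 10 or more over the libraries.

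The 12 libraries formed 6 groups of 2: WT, KO and KO+Rescue cells, each as mESC and after 48 hours in N2B27 (day 2). All groups descend from TET2 fl/fl blastocysts, so that every line, WT included, carries Tet2 alleles flanked by loxP sites, and no Cre was named for these lines. mESC were kept in serum with LIF and inhibitors of the kinases MEK and GSK3. N2B27 is a serum-free medium without these inhibitors, in which mESC leave pluripotency and turn to neural fates. KO is 1 clone made with CRISPR-Cas9, and KO+Rescue is 1 clone derived from it that carries an inserted Proser1 coding sequence with a FLAG tag and was selected with blasticidin. A difference between genotypes therefore cannot be told apart from a difference between clones. Both libraries of a group are labelled as biological replicates, but how the cultures were kept apart is not described, so p-values measure the spread between these libraries, which may be technical.

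TET1, TET2 and TET3 oxidise methylated cytosine in DNA, first to 5-hydroxymethylcytosine and then to forms that base excision repair removes. TET1 and TET2 are known for their abundance in mESC, and TET3 for its place in the oocyte, the zygote and neural cells. OGT adds the sugar N-acetylglucosamine to serine and threonine residues of nuclear and cytosolic proteins, and binds TET proteins. PROSER1 is a proline- and serine-rich protein that joins TET and OGT.

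The sequence below is the CRISPR guide that defines the KO line, with the 3 bases that follow it in the genome, the PAM, in capitals. It matched once on chromosome 3, in exon 1 of 13 of transcript Proser1-201, on the plus strand, from 53371720 to 53371738 in GRCm39. It covers bases 25 to 43 of the coding sequence, counted from the start codon. The line under it gives the reference from the first guide base across the end of exon 1, to show how close the cut lies to the splice site, with the 21 exon bases in capitals and the first 9 intron bases in lower case.

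Proser1 guide: gtgctggatgaaattcgaaAGG

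Proser1 exon 1 end: GTGCTGGATGAAATTCGAAAGgtaattgac

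The gene-level table counts reads over the whole gene. It does not read the edited bases, so that Proser1 RNA is no check of the knockout. The rescue construct holds coding sequence, which the table adds to that of the endogenous gene.

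In GRCm38, the build of the deposited files, Proser1 spans 53463795 to 53481755 on chromosome 3. Tet2 lies on the same chromosome, from 133463677 to 133545136. Tet1 lies on chromosome 10 (62804570 to 62887469), Tet3 on chromosome 6 (83362373 to 83457208) and Ogt on chromosome X (101640011 to 101684351). RefSeq places the long non-coding gene Gm51805 over Tet1, and Mir6374 and B230319C09Rik over Tet3. The strand setting of the counting was not given in the sources used here, so that reads of these overlapping genes may not be separable from those of Tet1 and Tet3.

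Libraries held 38634668 to 66450803 reads assigned to genes, a range of 1.72-fold. Cells carried the RNA of their labelled stage: between mESC and day 2, all 8 pluripotent stem cell markers fell in every genotype and 6 of 6 tested formative and early neural markers rose. In bulk RNA, fewer cells of a type and less RNA per cell cannot be told apart.

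Proser1 was expressed in all 6 groups. The normalised count, which is the read count divided by the library's size factor, was 889 and 550 in the WT mESC libraries and 576 and 502 in KO mESC. At day 2 it was 829 and 685 in WT and 872 and 1067 in KO. KO+Rescue held 2828 and 3090 in mESC and 3041 and 2994 at day 2. KO and WT overlapped in mESC, KO lay just above WT at day 2, and all 4 KO+Rescue libraries lay far above the other 8. The share of all tested genes whose groups separate was not counted, here or for the genes that follow.

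**Figure D1:**
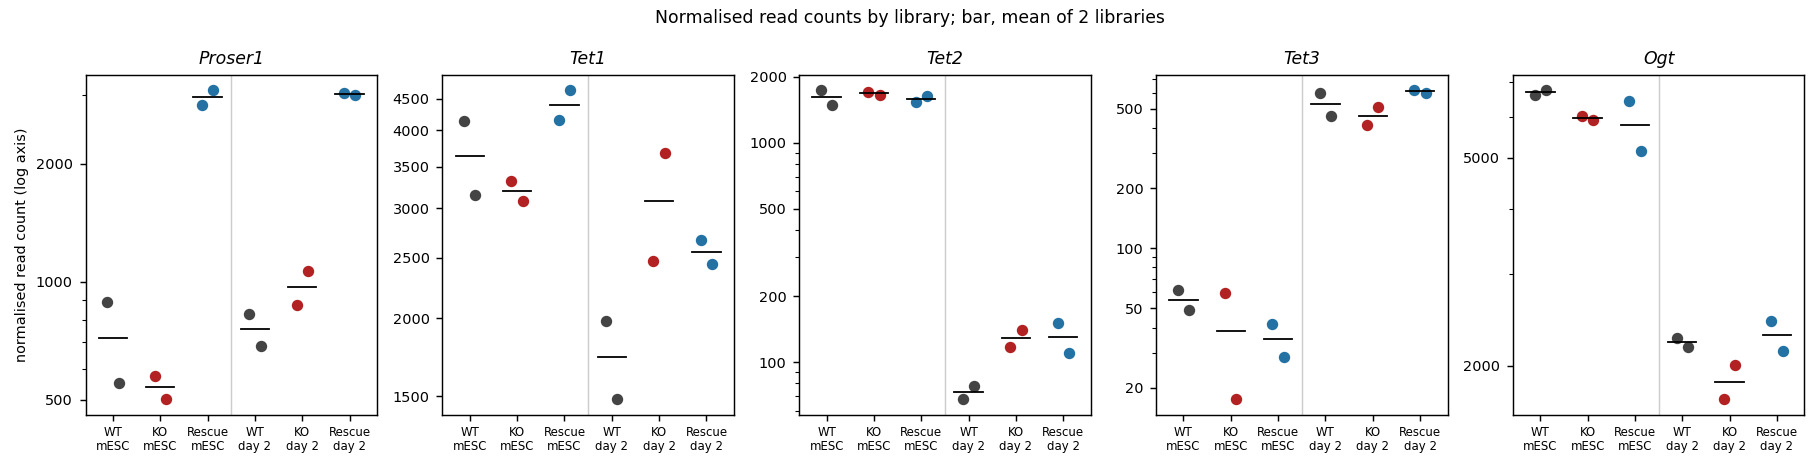
Normalised read count (vertical, log axis) of each gene in the 12 libraries, grouped by genotype and stage (horizontal), with a bar at the mean of 2 libraries. Tet2 drops from 1481 or more in every mESC library to 150.2 or less at day 2, while Tet3 climbs from 61.6 or less to 411 or more.

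Neither KO-to-WT difference of Proser1 RNA was called by limma: -0.38 ± 0.20 in mESC (log2 fold change ± SE, adjusted p = 0.215) and 0.36 ± 0.20 at day 2 (adjusted p = 0.368). The mESC value changed with the WT library used. Leaving out replicate B gave -0.72 and a call (adjusted p = 0.0172), and leaving out replicate A gave -0.03. None of the 5 genes was called between KO and WT mESC, where 9.48% of all tested genes were called at the threshold of 0.05. That is 1455 genes, a count that ranged from 392 to 3225 when 1 library of the comparison was left out.

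From KO to KO+Rescue, Proser1 was the 1 gene of the 5 that passed. It was 5.49-fold higher in KO+Rescue than in KO mESC (log2 2.46 ± 0.20, adjusted p = 0.000222) and 3.13-fold higher at day 2 (1.64 ± 0.20, adjusted p = 0.00122). In these comparisons 1.51% and 1.83% of tested genes were called. KO+Rescue exceeded the WT level 4.22-fold in mESC and 4.0-fold at day 2 (adjusted p = 9e-05 and 5.04e-05). Of all tested genes, 18.2% were called between KO+Rescue and WT mESC and 11.1% at day 2.

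Between stages, Proser1 passed the test in KO, where it rose 1.79-fold from mESC to day 2 (log2 0.84 ± 0.20, adjusted p = 0.00261), a call that held in each of 13 alternative analyses. The stage difference was 0.11 ± 0.20 in WT and 0.03 ± 0.20 in KO+Rescue (adjusted p = 0.669 and 0.907). Whether the KO change differed from that in WT was tested directly, and it did not pass (difference 0.74, 95% interval 0.13 to 1.34, adjusted p = 0.276, limma). The value turned on the WT mESC library used. Without replicate B the difference was 1.08 and passed (adjusted p = 0.0304), and without replicate A it was 0.39 (adjusted p = 0.683), while the stage change of Proser1 in WT then rose to 0.45 and passed (adjusted p = 0.0451). The groups in order of their mean were KO+Rescue at day 2 and in mESC, KO at day 2, WT at day 2, WT mESC and KO mESC. Neighbours overlapped at 3 of the 5 steps, the exceptions being from KO+Rescue mESC to KO at day 2 and from KO to WT at day 2.

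Between Proser1 and its genomic neighbours no shared change between genotypes was called. The 3 tested genes within 250 kb, Lhfp, Nhlrc3 and Frem2, passed in none of the 6 comparisons between genotypes. Lhfp, singled out after its values were seen, came nearest, with 0.99 ± 0.28 between KO and WT at day 2 (adjusted p = 0.0564).

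Tet1 was the most abundant TET gene at both stages. Its normalised count was 4135 and 3147 in WT mESC, 3323 and 3082 in KO mESC and 4156 and 4645 in KO+Rescue mESC. At day 2 it was 1982 and 1485 in WT, 2474 and 3686 in KO, while the KO+Rescue libraries held 2669 and 2447. The WT day 2 libraries were the lowest of the 12, and the KO day 2 libraries differed from each other more than the replicates of either other genotype at that stage.

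From mESC to day 2, Tet1 fell 2.1-fold in WT (log2 -1.07 ± 0.20, adjusted p = 0.000518) and 1.72-fold in KO+Rescue (-0.78 ± 0.20, adjusted p = 0.00406). In KO the difference was -0.08 ± 0.20 and did not pass (adjusted p = 0.724). The call in KO+Rescue was lost when libraries were scaled to equal totals (-0.41, adjusted p = 0.147). Stage changed many genes: 51.9% of tested genes were called in WT, 60.1% in KO cells and 58.2% in the KO+Rescue libraries.

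At day 2, Tet1 was 1.76-fold higher in KO than in WT (log2 0.82, 95% interval 0.39 to 1.24, adjusted p = 0.0299), where 5.21% of tested genes were called. Both KO libraries lay above both WT libraries, but the share of all tested genes that separate in this way was not counted. The call was lost in 5 of 13 alternatives, among them leaving out KO day 2 replicate B (0.53, adjusted p = 0.333) or WT day 2 replicate B (0.61, adjusted p = 0.115). In KO+Rescue the difference from the same WT libraries was 0.57 (0.15 to 1.00) and did not pass (adjusted p = 0.0747). It passed in 3 of 13 alternatives: with DESeq2 (0.56, adjusted p = 0.0496), with the replicate letter as a block (0.57, adjusted p = 0.0229) and without WT day 2 replicate A (0.78, adjusted p = 0.0494). KO+Rescue and KO overlapped and differed by -0.24 (-0.66 to 0.18, adjusted p = 0.576).

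The KO effect on Tet1 was -0.17 (-0.59 to 0.25) in mESC. The day 2 effect exceeded it by 0.99 (0.39 to 1.58), which did not pass (adjusted p = 0.128, limma), in a contrast where 1.13% of tested genes were called. It passed with DESeq2 (1.01, adjusted p = 0.0301) and without WT day 2 replicate A (1.20, adjusted p = 0.0442).

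Tet2 was abundant in mESC and scarce at day 2. Its normalised count was 1740 and 1481 in WT mESC, 1710 and 1648 in KO mESC, and 1535 and 1635 in KO+Rescue mESC. At day 2 it was 67.8 and 77.5 in WT, 117 and 141 in KO, while the KO+Rescue libraries held 150 and 110. Every mESC library lay above every day 2 library, and at day 2 both WT libraries lay below the other 4. The share of all tested genes with such an order was not counted.

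From mESC to day 2, Tet2 fell 21.9-fold in WT (log2 -4.45 ± 0.18, adjusted p = 1.6e-09). The fall in KO was 12.97-fold (-3.70 ± 0.18, adjusted p = 4.39e-09) and that in KO+Rescue 12.2-fold (-3.61 ± 0.18, adjusted p = 4.84e-09). In mESC the values of KO and KO+Rescue lay within the range of WT: KO differed from WT by 0.06 (95% interval -0.32 to 0.45) and KO+Rescue from WT by -0.02 (-0.41 to 0.37). None of these differences was called, and KO+Rescue and KO mESC differed by -0.08 (-0.47 to 0.31).

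At day 2, Tet2 was 1.76-fold higher in KO than in WT (log2 0.82 ± 0.18, adjusted p = 0.0191) and likewise 1.76-fold higher in KO+Rescue than in WT (0.82 ± 0.18, adjusted p = 0.0136). These comparisons share their WT libraries. KO+Rescue and KO differed by -0.00061 (-0.39 to 0.39). The day 2 values rest on 107 to 188 reads per library. The KO call was lost in 5 of 13 alternatives, among them each of 3 libraries left out in turn: WT replicate A (0.72, adjusted p = 0.0852), then KO replicates A (0.95, adjusted p = 0.0618) and B (0.69, adjusted p = 0.209). Without KO replicate B neither Tet1 nor Tet2 was called in KO at day 2. The KO+Rescue call was lost in 4 of 13, among them leaving out WT replicate A (0.72, adjusted p = 0.0716) or KO+Rescue replicate A (0.59, adjusted p = 0.143). The KO effect at day 2 exceeded that in mESC by 0.75 (0.20 to 1.30), which did not pass (adjusted p = 0.209).

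**Figure D2:**
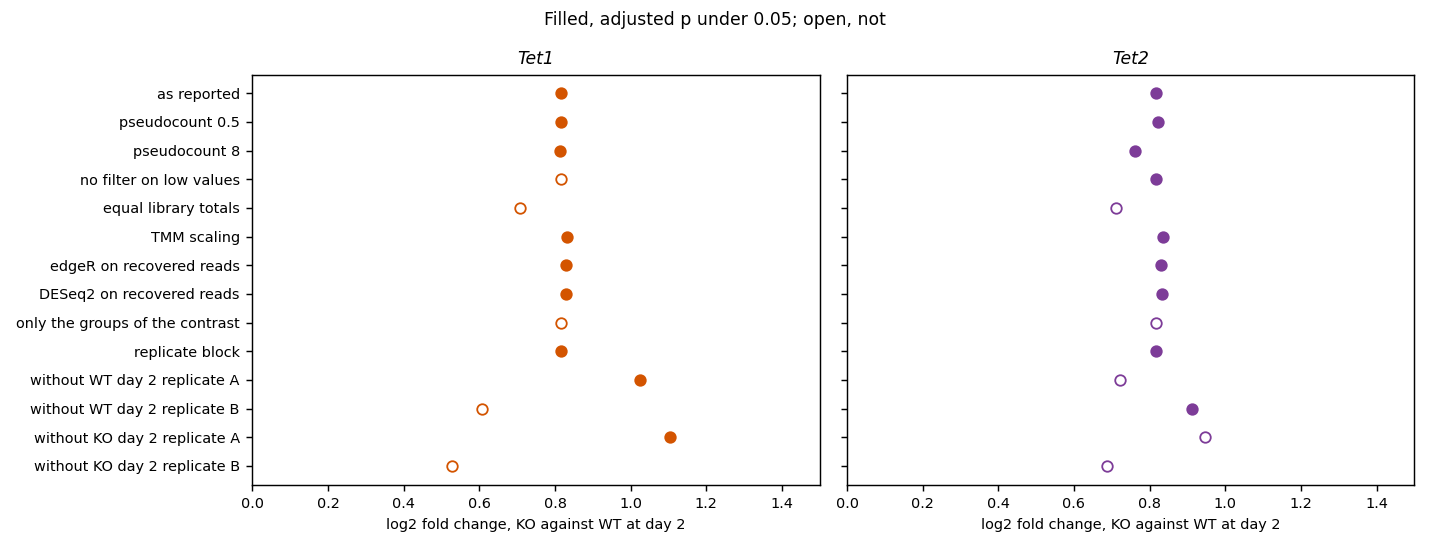
Log2 fold change of Tet1 and Tet2 between KO and WT at day 2 (horizontal) under each analysis setting (vertical), filled where the adjusted p was under 0.05. All points lie above 0, between 0.53 and 1.10 for Tet1 and between 0.69 and 0.95 for Tet2, and 5 of the 13 alternatives are open for each gene.

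Markers of cell state also differed between KO and WT at day 2, and their part in the Tet1 and Tet2 values was not tested. Of 4 tested mesendoderm markers 2 rose in KO, Eomes (log2 1.82 ± 0.25, adjusted p = 0.000869) and T (1.30 ± 0.26, adjusted p = 0.0108). The other 2 were not called and had lower means in KO: Mixl1 (30.6 in WT, 19.3 in KO) and Gsc (7.37 and 7.07). The median over the 4 was 0.63. The summed normalised count of the 5 listed mesendoderm markers was 141 to 189 in WT, 411 to 428 in KO cells and 98.6 to 124 in the KO+Rescue libraries. Within this sum, Eomes had means of 91.3, 311 and 62.8. Of 8 pluripotent stem cell markers Nanog rose (1.30 ± 0.19, adjusted p = 0.00126) and Esrrb fell (-1.54 ± 0.21, adjusted p = 0.00083), and the median over the 8 was -0.16. Their sum was 74870 to 105232 in WT, 107329 to 114737 in KO cells and 99788 to 115509 in the KO+Rescue libraries. Most of it was Pou5f1, with a mean of 53501 ± 11541 in WT and 80333 ± 5602 in KO (SD, n = 2), a difference that was not called (adjusted p = 0.113). The other 5, Sox2, Zfp42, Dppa5a, Tfcp2l1 and Klf4, gave -0.37 to -0.034 and were not called. From KO to KO+Rescue, Nanog (-1.52), Eomes (-2.31) and T (-1.84) fell, and Esrrb (-0.064) was not called.

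Of 7 tested fibroblast and feeder markers, Acta2 (2.94 ± 0.35, adjusted p = 0.000315) and Tagln (1.31 ± 0.23, adjusted p = 0.00513) were higher in KO than in WT at day 2. The other 5 were not called, Col1a1, Pdgfra and Pdgfrb being below 0 on the log2 scale and Col1a2 and Thy1 above, and the median over the 7 was 0.19. Between KO+Rescue and WT the median was -0.59, with 2 called higher and 1 lower. The sum of the 8 listed markers was 2099 to 2774 in WT, 4575 to 5126 in KO cells and 5147 to 5670 in the KO+Rescue libraries. Most of the sum was Tagln, whose mean was 1475 ± 586 in WT, 3530 ± 304 in KO, and 4752 ± 360 for KO+Rescue (SD, n = 2). The part of these markers in the results was not tested either. The formative and early neural sum was 56007 to 71802, 91257 to 93417 and 79500 to 80496 in the 3 genotypes, with 3 of 6 tested markers called higher in KO. Most of that sum was Dnmt3b, with means of 49447, 70876 and 63054. Primitive endoderm markers summed to 181 to 199, 230 to 236 and 172 to 195. The largest part was Dab2, with means of 115, 96.0 and 109, while Gata4 had 19.9, 67.6 and 52.0. Of 4 tested, 1 was called higher in KO and 1 in KO+Rescue, both against WT, with medians of 0.12 and -0.66. Neuron markers summed to 2918 to 3461, 2828 to 2885 and 2420 to 2748. Most of the neuron sum was Tubb3, with means of 2537, 2046 and 1827.

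Tet3 moved opposite to Tet2. Its normalised count was 61.6 and 48.8 in WT mESC, 59.4 and 17.5 in KO mESC and 41.8 and 28.5 in KO+Rescue mESC. At day 2 it was 596 and 461 in WT, 411 and 510 in KO, while the KO+Rescue libraries held 620 and 598. Every day 2 library lay above every mESC library. The mESC values rest on 13 to 53 reads per library.

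Tet3 rose 9.4-fold in WT (log2 3.23 ± 0.41, adjusted p = 2.82e-05), 13.7-fold in KO (3.78 ± 0.41, adjusted p = 5.46e-06) and 17.2-fold in KO+Rescue (4.10 ± 0.41, adjusted p = 2.75e-06). No genotype comparison was called. In KO against WT the difference was -0.74 (95% interval -1.63 to 0.15) in mESC and -0.19 (-1.08 to 0.70) at day 2. The mESC value was set by KO replicate B, with 13 reads: without it the difference was 0.11, and without KO replicate A it was -1.59 and passed (adjusted p = 0.0151).

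Ogt was the most abundant of the 5 transcripts per kilobase of exon in WT and KO at both stages. Its normalised count was 6612 and 6745 in WT mESC, 6005 and 5912 in KO mESC and 6413 and 5163 in KO+Rescue mESC. At day 2 it was 2265 and 2170 in WT, 1727 and 2003 in KO, while the KO+Rescue libraries held 2442 and 2133. Both KO libraries lay below both WT libraries at each stage, but neither difference was called. How many of all tested genes separate in this way was not counted. Every mESC library lay above every day 2 library.

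Ogt fell 3.01-fold from mESC to day 2 in WT (log2 -1.59 ± 0.13, adjusted p = 7.29e-07), 3.2-fold in KO (-1.68 ± 0.13, adjusted p = 3.02e-07) and 2.52-fold in KO+Rescue (-1.33 ± 0.13, adjusted p = 2.52e-06). Between KO and WT it differed by -0.16 (95% interval -0.45 to 0.12) in mESC and -0.25 (-0.54 to 0.03) at day 2, and neither passed (adjusted p = 0.417 and 0.34). From KO to KO+Rescue the difference was -0.05 in mESC and 0.30 (0.01 to 0.58) at day 2, and neither passed after adjustment (adjusted p = 0.902 and 0.278). The difference of these 2 effects did not pass for any of the 5 genes, with 0.0847% of all tested genes called.

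**Figure D3:**
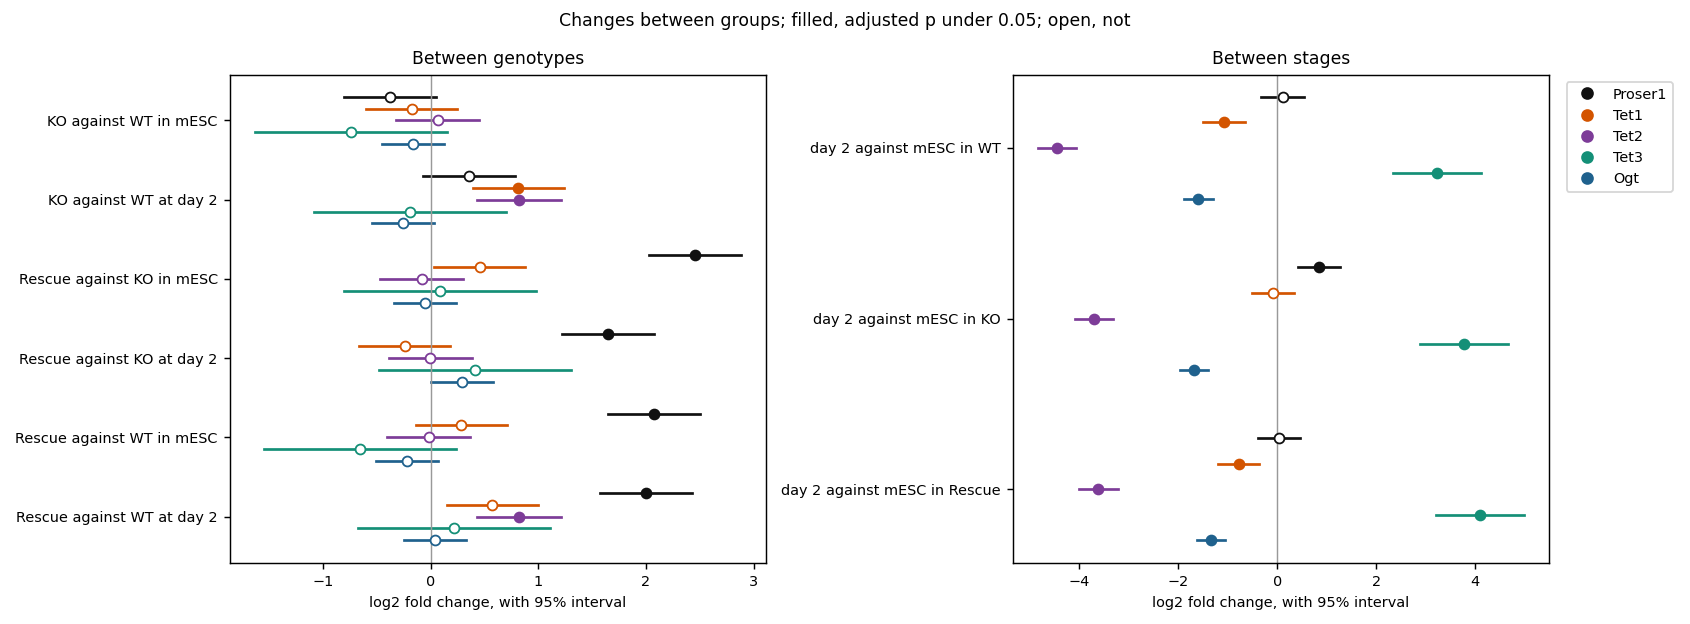
Log2 fold change of each gene with its 95% interval (horizontal) in the 6 comparisons between genotypes and the 3 between stages (vertical), filled where the adjusted p was under 0.05. Between stages Tet2 and Ogt are lower and Tet3 is higher at day 2 in all 3 genotypes, while between genotypes only Proser1 in KO+Rescue lies beyond 1.5 on the log2 scale.

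To compare levels between genes, normalised counts were divided by the length of the union of exons of each gene's coding transcripts: 5744 bases for Proser1, 15288 for Tet1, 10168 for Tet2, 11817 for Tet3 and 5595 for Ogt. These lengths come from GENCODE in GRCm39, not from the build of the files. In WT mESC the order per kilobase was Ogt (1194 ± 16.8, SD, n = 2), Tet1 (238 ± 45.7), Tet2 (158 ± 18.1), Proser1 (125 ± 41.7) and Tet3 (4.67 ± 0.77). Tet2 and Proser1 overlapped in their ranges.

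In WT at day 2 the order per kilobase was Ogt (396 ± 12.02), Proser1 (132 ± 17.6), Tet1 (113 ± 23.0), Tet3 (44.7 ± 8.1) and Tet2 (7.15 ± 0.68). Proser1 and Tet1 overlapped here. In KO mESC the order was that of WT mESC, and at day 2 Tet1 (201 ± 56.1) stood above Proser1 (169 ± 24.0). The order in these groups was the same with the longest transcript as length. Proser1 has no such place in KO+Rescue: its counts there include the construct, which holds coding sequence alone, so that division by the whole exon length understates its level by an amount that was not measured.

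The summed TET level per kilobase was 356 to 467 in the mESC libraries and 144 to 298 at day 2. Tet1 made up 55.2% to 65.1% of it in mESC (median 59.2%) and 67.6% to 80.9% at day 2 (median 72.2%). Tet2 went from 34.4% to 44.4% in mESC to 3.57% to 6.11% at day 2. Tet3 went from 0.406% to 1.29% in mESC to 14.5% to 27.1% at day 2. None of these 4 ranges overlapped between the 6 mESC and the 6 day 2 libraries. A two-sided exact permutation test over 12 libraries gave p = 0.00216 each, the smallest it allows (adjusted p = 0.00325 over 6 quantities). That p follows from the separation, so that it adds no evidence beyond it. Libraries were shuffled there without regard to genotype. The shares of Tet1, Tet2 and Tet3 are parts of the same sum and are not separate results.

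**Figure D4:**
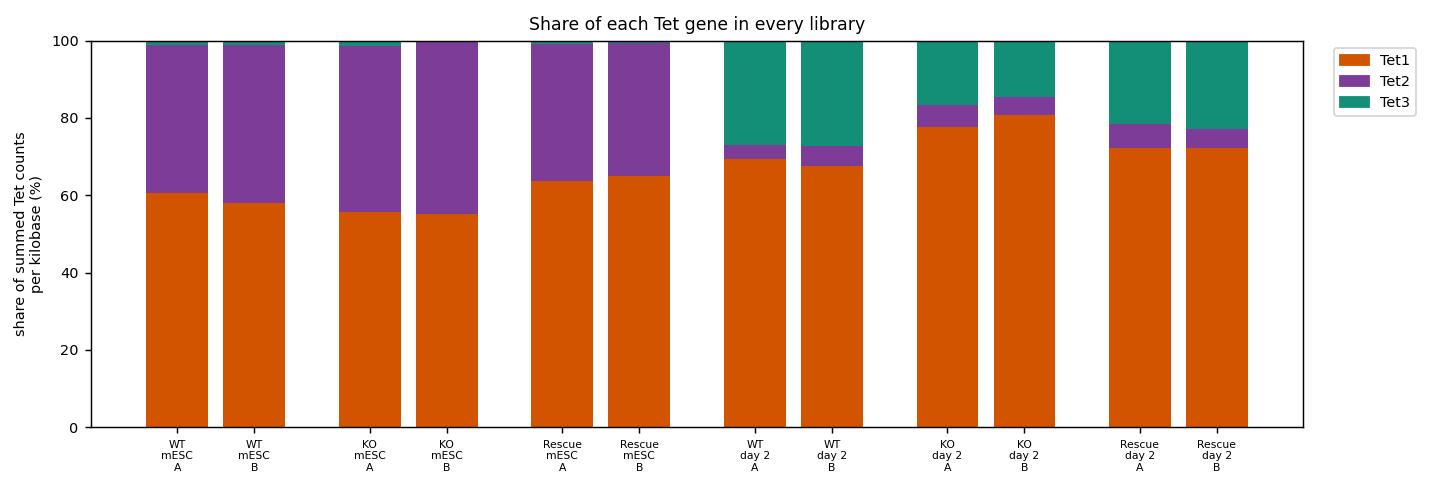
Share of Tet1, Tet2 and Tet3 in the summed TET normalised count per kilobase (vertical, percent) in each of the 12 libraries (horizontal, replicates A and B). Tet1 holds over 55% in all libraries, and the second place passes from Tet2 in mESC to Tet3 at day 2.

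Within day 2, the share of Tet3 in the TET sum was 27.01% and 27.1% for WT libraries, 16.7% and 14.5% for KO, and 21.7% and 22.9% for KO+Rescue. The 3 genotypes did not overlap. An exact permutation test of the Tet3 share over the 6 day 2 libraries gave p = 0.0667, the smallest that 3 groups of 2 allow. No arrangement of these libraries could have passed the threshold, so that the test adds no evidence beyond the separation. The shares of Tet1 and Tet2 were not tested between genotypes. The ratio of Proser1 to the TET sum, both per kilobase, was 0.346 and 0.27 in WT mESC, 0.257 and 0.239 in KO mESC and 1.15 in each KO+Rescue mESC library. At day 2 it was 0.772 and 0.83 in WT, 0.73 and 0.623 in KO, while the KO+Rescue libraries held 2.19 and 2.35. The KO+Rescue values count the construct over the whole exon length and are not on the scale of the others. Within each genotype both day 2 libraries lay above both mESC libraries. Shuffling stage over all 12 libraries, which mixes the scale of KO+Rescue with that of the others, the difference did not pass (exact permutation p = 0.102, adjusted p = 0.102). Shuffling it within each genotype, chosen after seeing the data, gave an exact permutation p = 0.00926 (adjusted p = 0.0111). That is the smallest that 216 splits allow and follows from the order just given, so that it adds no evidence beyond that order. The ratio of Ogt to the TET sum was 1.98 to 3.39 in mESC and 1.20 to 2.70 at day 2 (exact permutation p = 0.0173, adjusted p = 0.0208), with overlap.

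PSPC1, NONO and SFPQ are the paraspeckle DBHS proteins, which bind RNA. The study found PSPC1 and NONO with PROSER1, TET and OGT, and named SFPQ as a protein with which PSPC1 can pair. Pspc1 had 7099 ± 1017 in WT mESC and 6340 ± 1001 in WT at day 2 (mean ± SD, n = 2), Nono 22590 ± 481 and 21929 ± 610, and Sfpq 14172 ± 2851 and 19557 ± 6136. None was called between KO and WT at either stage, nor between KO+Rescue and KO. Pspc1 was 1.37-fold higher in KO+Rescue than in WT mESC (log2 0.46 ± 0.15, adjusted p = 0.0455). Sfpq rose with stage in KO (0.79 ± 0.19, adjusted p = 0.00332) and KO+Rescue (0.64 ± 0.19, adjusted p = 0.0123), and gave 0.44 ± 0.19 in WT (adjusted p = 0.0706). Nono passed in none of these comparisons.

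Among 11 tested genes of O-GlcNAc cycling and UDP-GlcNAc synthesis, Ogt included, 2 rose and 6 fell from mESC to day 2 in WT. Of all tested genes 51.9% were called there. The median log2 change was -0.56 against -0.02 over all tested genes. Mgea5, the gene of the O-GlcNAcase that removes the sugar, rose in WT (0.89 ± 0.14, adjusted p = 0.000148), as did Uap1, which makes UDP-GlcNAc (0.59 ± 0.12, adjusted p = 0.00145). Gfpt2, an enzyme of the first step of hexosamine synthesis, fell (-0.82 ± 0.14, adjusted p = 0.00036). Mgea5 rose and Ogt, Amdhd2, Nagk and Pgm3 fell in all 3 genotypes, which is 45.5% of the list against 40.1% of all tested genes called the same way in all 3. Between KO and WT mESC, Gfpt2 fell (-0.79 ± 0.14, adjusted p = 0.00535) and Amdhd2 rose (0.51 ± 0.12, adjusted p = 0.0204), and at day 2 none of the 11 was called. Between KO and WT, 9.48% of all tested genes were called in mESC and 5.21% at day 2, for the lists that follow as well.

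Genes of base excision repair, the pathway that removes oxidised methylcytosine, moved both ways with stage in WT. Of 11, 2 rose and 5 fell, against 51.9% of all tested genes called, with a median of -0.29 against -0.02. Neil3 (0.95 ± 0.21, adjusted p = 0.00251) and Tdg (0.30 ± 0.12, adjusted p = 0.0462), both glycosylases, rose, and Parp1 (-0.78 ± 0.14, adjusted p = 0.000433) and Smug1 (-1.02 ± 0.18, adjusted p = 0.000456) fell. These 4 moved the same way in all 3 genotypes, which is 36.4% of the list and below the 40.1% of all tested genes. Between KO and WT, only the ligase gene Lig3 was called among the 11, in mESC (-0.48 ± 0.13, adjusted p = 0.033).

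Of 11 tested genes of TET partners and regulators, 1 rose and 7 fell with stage in WT, with a median of -0.70, against the same 51.9% of all tested genes. Nanog (-5.66 ± 0.19, adjusted p = 3.31e-10) and Prdm14 (-5.99 ± 0.57, adjusted p = 2.19e-06), pluripotency regulators, fell most by adjusted p. Nanog was also the 1 gene of this list called at day 2 between KO and WT, and Hdac2 the 1 called in mESC (0.37 ± 0.11, adjusted p = 0.0446). Of 12 genes that supply or use up TET cofactors, 2 rose and 3 fell in WT, a smaller share than that of all tested genes, with a median of -0.061. Idh2, which makes 2-oxoglutarate in mitochondria, fell (-1.30 ± 0.12, adjusted p = 2.41e-06), as did Idh3g (-0.56 ± 0.12, adjusted p = 0.00195). The vitamin C transporter gene Slc23a1 (2.38 ± 0.51, adjusted p = 0.0016) and Idh1 (0.56 ± 0.15, adjusted p = 0.00634) rose. In KO mESC, Idh2 was the 1 gene of the 12 called against WT (0.46 ± 0.12, adjusted p = 0.0374), and at day 2 none was.

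Genes with the pattern most like each member were sought by Pearson's r of log2 normalised counts over the 12 libraries, which share their stages and genotypes, among tested genes with a mean of at least 100. For Proser1 these were Ubr4 (r = 0.87), Efcab2 (0.86) and Gnai1 (0.85). Proser1 counts in KO+Rescue include the construct, so that its pattern is mostly that of the KO+Rescue clone. All of these genes had their highest means in KO+Rescue. Ubr4 had means of 3092 to 3675 in the WT and KO groups, and 4251 and 5579 in KO+Rescue (mESC, then day 2). For Tet1 they included LOC108167440 (0.94) and Gli2 (0.92). Tet2 was most like Zfp971 (1.00), Lgals3 (0.99) and Carnmt1 (0.99), and Tet3 most like E330009J07Rik (0.99), Ica1 (0.99) and Foxp1 (0.99). Ogt was most like Sox2, Cdx1 and Zbtb43 (0.99 each).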

How the data were processed

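The series holds RNA-seq of 12 mouse libraries. Per the labels and the study's methods, the authors trimmed reads with Trimmomatic, aligned them to mm10 with STAR, counted read pairs per gene with featureCounts (called reads here) and removed reads of the Y chromosome. Versions were not given in the sources used here. The deposited values, a signal of read counts divided by DESeq2 size factors, gave whole reads for 100% of entries (tolerance 0.001). The columns name the KO and KO+Rescue libraries by a line code that no label explains; they were read so because WT is named outright. Replicates carry letters A and B. Here, log2(normalised count + 1) was fitted with limma (3.58.1, R 4.3.3, trend on mean expression, 6 group means over all 12 libraries, genes with a mean of at least 10), and p-values were adjusted by Benjamini-Hochberg over 15341 genes, with a threshold of 0.05. Fold changes are on that scale. Error bars and intervals come from this fit. Alternatives were edgeR (4.0.16) quasi-likelihood and DESeq2 (1.42.0) tests on the recovered reads, other pseudocounts, scalings and filters, fits of the compared groups alone, the replicate letter as a block and leaving out each library. TET shares were compared by exact permutation of libraries, also within genotype (chosen after seeing the data). The scripts were tested on simulated data. Genes named were the 5 members and 3 DBHS genes, and of each other list up to 2 called genes per direction with the smallest adjusted p, for genes with a mean of at least 50 in the higher group, and for each member the 3 genes of most like pattern, of which 1 is not reported here. The guide was taken from the study's supplementary list and placed in the reference genome by sequence. Members and lists were chosen with earlier results of these data known.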

Additional observations from a re-analysis of the deposited data

How the results depend on the processing

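Each of the 5 genes in each of the 11 contrasts was refitted under the alternatives, 755 results in all. Direction and side of the threshold held in 697, 15 lost their call, 11 gained one and 32 changed sign. No change of sign touched a called result, and the stage calls of Tet2, Tet3 and Ogt held in all 3 genotypes. The causes were not tested.

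With libraries scaled to equal totals, the median change of all genes moved to -0.38 for KO+Rescue against WT mESC, -0.25 for KO against WT mESC and 0.21, 0.35 and 0.34 between stages in WT, KO and KO+Rescue. Members called at day 2 then fell to 0 for KO and 1 for KO+Rescue, both against WT, and rose to 2 for KO+Rescue against WT mESC, where Ogt passed at -0.54. These signs turned: Tet2 in KO against WT mESC (-0.15), Tet3 in KO+Rescue against KO mESC (-0.028), Tet1 in KO+Rescue against WT mESC (-0.044), Ogt in KO+Rescue against WT at day 2 (-0.16), Tet1 between stages in KO (0.25) and the difference of KO effects for Ogt (0.014). Among called genes, the share that was higher moved from 34.02% to 14.6% in KO against WT mESC, from 30.2% to 18.9% at day 2, from 50.3% to 14.7% and from 35.1% to 18.8% in KO+Rescue against WT, and from 51.2% to 67.6% between stages in WT.

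Tet2 in KO+Rescue against KO at day 2 became 0.019 with TMM scaling, 0.0024 with edgeR and 0.0017 with DESeq2, and Tet3 in mESC became -0.13 with either. Without the filter on low values 1 member was called for KO against WT at day 2. Fitted with only the compared groups, 0 were called there and 1 for KO+Rescue against WT at day 2. The difference of KO effects had 1 member called, Tet1, with DESeq2.

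The replicate letters do not pair the samples by any label, and deviations of same-lettered libraries correlated at -0.048 to 0.413 over 15 pairs of groups, 6 of them over 0.1. With the replicate block, Tet1 passed for the difference of KO effects (1 member called, 0.99, adjusted p = 0.0336) and for KO+Rescue against WT at day 2 (0.57, adjusted p = 0.0229), and the block changed no other call of the 5 genes. Genes called rose with it from 1455 to 3657 for KO against WT mESC and from 799 to 1619 at day 2, from 232 to 584 and from 281 to 1183 for KO+Rescue against KO, and from 2790 to 4647 and from 1702 to 3568 between KO+Rescue and WT. With all libraries, other counts that moved by over 1.5 times were 950 (no filter) for KO against WT mESC, 1419 (DESeq2) at day 2, 379 (DESeq2) for KO+Rescue against KO mESC, 161 (no filter), 176 (equal totals) and 733 (DESeq2) at day 2, 1534 (no filter) and 4563 (equal totals) for KO+Rescue against WT mESC, and 2558 (DESeq2) at day 2.

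Leaving out 1 library at a time, where a group's lone library is assumed to vary like the others, members called ranged from 0 to 1 for KO against WT at either stage and for the difference of KO effects, and from 1 to 2 for KO+Rescue against WT at day 2. Ranges crossed 0 for KO against WT mESC, -0.37 to 0.024 for Tet1, -0.052 to 0.18 for Tet2 and -1.59 to 0.11 for Tet3. For KO+Rescue against KO in mESC they were -0.76 to 0.94 for Tet3 and -0.21 to 0.11 for Ogt, and at day 2 -0.53 to 0.047 for Tet1 and -0.22 to 0.22 for Tet2. For KO+Rescue against WT they were -0.14 to 0.10 for Tet2 in mESC and -0.056 to 0.14 for Ogt at day 2. Between stages they were -0.24 to 0.45 for Proser1 in WT, -0.034 to 0.093 for Proser1 in KO+Rescue and -0.37 to 0.20 for Tet1 in KO. For the difference of KO effects they were -0.31 to 1.40 for Tet3 and -0.20 to 0.018 for Ogt, and for that of KO+Rescue effects -0.14 to 0.31 for Tet2 and -0.53 to 1.17 for Tet3.

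Fits with only the compared groups called 181 and 426 genes between KO and WT (mESC, then day 2), 1 and 2348 from KO to KO+Rescue, and 347 and 694 between KO+Rescue and WT. With all libraries, the difference of KO effects had 68 to 500 genes called (173 as reported) and that of KO+Rescue effects 4 to 86 (13). With 1 library left out, genes called ranged from 392 (without KO replicate B) to 3225 (without WT replicate B) for KO against WT mESC and from 246 (without KO replicate A) to 711 at day 2. The ranges were 22 (without KO replicate A) to 170 and 32 (without KO replicate A) to 61 from KO to KO+Rescue, and 285 (without KO+Rescue replicate B) to 4277 (without WT replicate B) and 464 (without KO+Rescue replicate A) to 2669 (without WT replicate B) between KO+Rescue and WT. For the difference of KO effects the range was 48 to 347, for that of KO+Rescue effects 1 to 2, and between stages it stayed within 1.5 times. Shuffling stage within genotype, chosen after seeing the data, made the stage difference of the ratio of Proser1 to the TET sum (0.68) pass, and the other 5 quantities passed either way. The longest transcript as length moved 6 of 30 levels per kilobase by more than 1 SD, and no order in WT or KO.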
